A study of Mus musculus with 24 samples.

Results

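Left ventricles of mice 21 days after TAC were compared with left ventricles 21 days after a sham operation, across all genes of the count table. TAC, transverse aortic constriction, narrows the aorta and so loads the left ventricle with pressure. The comparison takes all 6 libraries that the labels assign to day 21, 3 of TAC and 3 of sham, out of 24 libraries in the series. The other 18 libraries are of TAC and sham hearts at days 2, 4 and 7. Each library was made from total RNA of a ventricle frozen after dissection. The labels used here name only the tissue, the operation and the day. Nothing in them says whether replicates come from separate mice, so a p-value reflects the scatter among these libraries, part of which may be technical.

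A ventricle under pressure overload is known to enlarge its cardiomyocytes and to switch on genes of the fetal heart, among them the natriuretic peptides, skeletal actin and the slow myosin heavy chain. Fibroblasts of the loaded heart lay down collagen and other matrix. The adult heart draws most of its energy from fatty acids, and genes of fatty acid oxidation are known to fall in hypertrophied hearts while glucose and ketone use gains weight. Day 21 is a late point, when early inflammation and cell division have usually subsided and the remodelled state remains.

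Depth at day 21 was 10.7 to 13.8 M reads assigned to genes per library (M is 1000000). Values are given as CPM, counts per 1000000 counts after TMM scaling, and per-library values are listed in the order of replicates 1, 2 and 3. A log2 fold change is TAC over sham and is followed by ± its SE, with 3 libraries in each group. Ventricular marker genes were abundant in every library: the sum of 8 markers, among them Myl2 and Myh6, was 82993 to 87991 CPM in sham and 66427 to 94232 CPM in TAC, and 0 of 8 changed. Atrial genes were uneven. Myl7, the atrial regulatory light chain, measured 9.47, 70.2 and 1.15 CPM in sham and 0.356, 0.262 and 6.04 CPM in TAC replicates 1, 2 and 3. It was therefore highest in sham replicate 2, the same library being highest for the atrial light chain Myl4 at 39.2 CPM. Over all 9 atrial markers tested the summed level was 587 to 729 CPM in sham and 544 to 881 CPM in TAC, and the part of atrial tissue in the results was not tested. Myl7 exceeded 30 CPM in 4 of the 24 libraries, including sham replicate 2 of day 21.

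The TAC libraries differed more among themselves than the sham libraries did. The chi-square per degree of freedom between replicates was 3.52 to 5.64 among sham libraries. Among TAC libraries it was 15.3 between replicates 1 and 3, 18.8 between 1 and 2, and 49.4 between 2 and 3, so that replicate 1 lay between the other 2. Of the 3 TAC libraries, replicate 2 was the nearest to the sham mean for 102 of the 151 genes past the test, and for 1512 of all 3092 genes tested whose groups did not overlap. Counts for the gene lists are therefore also given without TAC replicate 2 where they differ from the full fit. They are to be read against the shares of all genes in that fit. As that library was picked for its nearness to sham, leaving it out favours calls. Counts and adjusted p-values without it are therefore no separate support. Without TAC replicate 1 only 8 of all genes tested passed, and without TAC replicate 3 only 9.

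At day 21 the genes that rose included the fetal heart genes Nppa and Acta1, the microfibril gene Mfap5 and Lrrc17, which encodes a secreted protein. The genes that fell included Aldh1l2, a mitochondrial folate enzyme, the fatty acid transporter Slc27a1 and the growth hormone receptor Ghr. In all, 151 of 13816 genes tested passed edgeR's quasi-likelihood test at a Benjamini-Hochberg adjusted p of 0.05, which is 1.09%. Of these 86 were higher after TAC (0.622%) and 65 were lower (0.47%). At an unadjusted p under 0.05, 1278 genes were higher (9.25%) and 1122 lower (8.12%). All 3 TAC libraries lay outside the range of the 3 sham libraries for 3092 genes (22.4%), and for 148 of the 151 genes past the test. The median log2 fold change over all genes tested was 0.01. DESeq2 called 241 genes higher (1.74%) and 195 lower (1.41%), and limma-voom called 46 higher (0.333%) and 41 lower (0.297%).

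The number of genes past the test depended on single libraries. Without TAC replicate 2 it was 575, of which 325 were higher (2.32%) and 250 lower (1.79%), and 144 of the 151 genes were among them. It was 28 without sham replicate 2, 17 without sham replicate 1 and 7 without sham replicate 3. It was 8 without TAC replicate 1 and 9 without TAC replicate 3. Libraries of other days, which share the estimate of spread, also moved it: 305 without TAC replicate 1 of day 2, 254 without TAC replicate 3 of day 4, 96 without sham replicate 2 of day 2, and 97 and 100 without sham replicates 2 and 3 of day 7. In a fit of the 6 libraries of day 21 alone, 30 genes passed, 22 higher and 8 lower, and only 20 of the 151 genes were among them. Without the 4 libraries with over 30 CPM of Myl7 only 3 passed, 1 higher and 2 lower, in a fit that leaves 2 sham libraries at day 21.

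**Figure D1:**
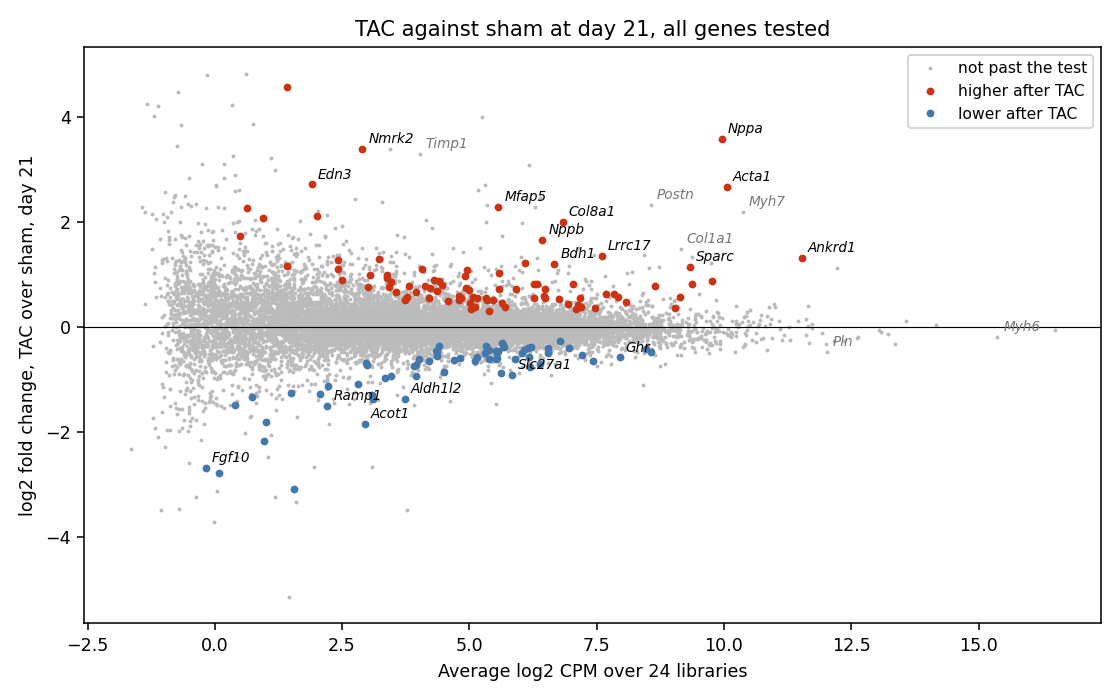
Log2 fold change of TAC over sham at day 21 (y axis) against the average log2 CPM over 24 libraries (x axis), 1 point per gene tested. Coloured points are the 86 genes higher and 65 genes lower past the test; labels in grey mark genes that did not pass. Nppa, Acta1 and Edn3 lie far above 0, while most genes past the test lie within a few log2 units of 0.

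Natriuretic and fetal heart genes were high after TAC. Of 19 tested members 4 rose and 0 fell: Nppa and Nppb, which encode the atrial and B-type natriuretic peptides, Acta1, which encodes skeletal alpha-actin, and Ankrd1, a stretch-responsive ankyrin repeat protein of the sarcomere and nucleus. The median log2 fold change of the list was 1.02, against 0.01 over all genes. The promoters of these 4 genes are shown because the genes rose together; letters in capitals mark matches to a CArG box, the site of serum response factor, to CATTCC, the core letters of a TEAD site, or to AGATAA, core letters of a GATA site, searched on both strands. The windows run from 250 bases before to 50 bases after each gene's start, 5′ to 3′ on the gene's strand, from RefSeq on GRCm38.p6.
Nppb: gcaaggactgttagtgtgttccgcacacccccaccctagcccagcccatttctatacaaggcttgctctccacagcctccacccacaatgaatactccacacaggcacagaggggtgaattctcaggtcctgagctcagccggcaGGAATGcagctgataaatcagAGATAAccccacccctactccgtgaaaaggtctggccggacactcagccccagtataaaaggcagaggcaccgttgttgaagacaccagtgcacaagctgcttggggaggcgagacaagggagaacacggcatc
Acta1: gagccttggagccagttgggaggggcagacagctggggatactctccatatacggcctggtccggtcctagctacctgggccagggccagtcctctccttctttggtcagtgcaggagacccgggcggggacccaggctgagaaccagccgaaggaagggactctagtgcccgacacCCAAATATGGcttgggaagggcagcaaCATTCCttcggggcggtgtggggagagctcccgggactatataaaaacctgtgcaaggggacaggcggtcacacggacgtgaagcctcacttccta
Ankrd1: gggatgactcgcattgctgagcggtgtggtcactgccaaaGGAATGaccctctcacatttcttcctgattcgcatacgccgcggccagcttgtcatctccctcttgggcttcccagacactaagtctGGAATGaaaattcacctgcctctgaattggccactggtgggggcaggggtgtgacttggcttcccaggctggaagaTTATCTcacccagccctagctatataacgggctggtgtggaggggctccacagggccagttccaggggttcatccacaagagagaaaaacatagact
Nppa: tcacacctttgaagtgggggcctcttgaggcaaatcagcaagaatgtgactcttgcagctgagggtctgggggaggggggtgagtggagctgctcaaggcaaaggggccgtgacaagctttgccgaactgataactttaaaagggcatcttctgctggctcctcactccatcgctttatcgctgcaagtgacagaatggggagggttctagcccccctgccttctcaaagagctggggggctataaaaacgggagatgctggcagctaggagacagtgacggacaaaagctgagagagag

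The Nppb window (chr4:147985650-147985949, plus strand) holds GGAATG, which is CATTCC read on the other strand, from -105 to -100 relative to the start, and AGATAA from -84 to -79. The Acta1 window (chr8:123894726-123895025, minus strand) holds a CArG box from -73 to -64 and CATTCC from -46 to -41. The Ankrd1 window (chr19:36119795-36120094, minus strand) holds GGAATG at -210 to -205 and again at -123 to -118, and TTATCT, which is AGATAA read on the other strand, at -47 to -42. The Nppa window (chr4:148000472-148000771, plus strand) holds none of these exact letters. That says nothing about other forms of these sites within it or about the factors beyond it. TGATAA, which differs from AGATAA in its first letter, was not searched for and occurs in the Nppa and Nppb windows. Of 27025 promoter windows of the same length, 1.57% hold a CArG box, 14.6% CATTCC and 11.4% AGATAA. A match is a description of letters and was not linked to the expression values by any test.

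Nppa measured 137, 269.8 and 113 CPM in sham and 2111, 678 and 3409 CPM in TAC replicates 1, 2 and 3. Every TAC library lay above every sham library, with replicate 2 the lowest of the TAC libraries. The fit gave a log2 fold change of 3.58 ± 0.52 and an adjusted p of 0.00403. Acta1 measured 446, 245 and 321 CPM in sham and 3138, 1004 and 2289 CPM in TAC replicates 1, 2 and 3, again without overlap, with a log2 fold change of 2.67 ± 0.43 and an adjusted p of 0.00898. Nppb measured 34.6, 59.0 and 48.1 CPM in sham and 140.5, 89.1 and 214 CPM in TAC replicates 1, 2 and 3. Its groups did not overlap either, but TAC replicate 2 was only modestly above sham replicate 2, and the fit gave a log2 fold change of 1.65 ± 0.35 and an adjusted p of 0.0316. Ankrd1 measured 1906, 2071 and 1815 CPM in sham and 4117, 2429 and 7874 CPM in TAC replicates 1, 2 and 3, with a log2 fold change of 1.32 ± 0.32 and an adjusted p of 0.0496.

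Myh7, the slow beta-myosin heavy chain, did not pass. It measured 545, 854 and 395 CPM in sham and 1609.5, 719.7 and 5786 CPM in TAC replicates 1, 2 and 3, so that TAC replicate 2 lay inside the sham range while TAC replicate 3 was far above it. The log2 fold change was 2.18 ± 0.67 with an adjusted p of 0.108, and 2.63 ± 0.65 with an adjusted p of 0.0309 when TAC replicate 2 was left out. The member with the largest estimate, Sprr1a, a small proline-rich protein, did not pass either, at 4.00 ± 2.17 with an adjusted p of 0.352: it measured 0.364, 0.564 and 0 CPM in sham and 2.85, 0.174 and 10.9 CPM in TAC replicates 1, 2 and 3, and the groups overlapped. Among further members that did not pass were Xirp2, an actin-binding protein of the intercalated disc, at 1.12 ± 0.29, Rcan1, a regulator of calcineurin, at 0.80 ± 0.26, and Gdf15, a stress-induced cytokine, at 2.69 ± 0.89. All 19 members had positive estimates. Without TAC replicate 2, 9 of the list were higher, and without sham replicate 2 it was 2, where 0.121% of all genes were higher and 0.0786% lower. The list's median difference from the sham mean, on the log2(CPM + 1) scale, was 0.89, 0.30 and 1.33 in TAC replicates 1, 2 and 3 and 0.04, 0.07 and -0.05 in the sham replicates.

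**Figure D2:**
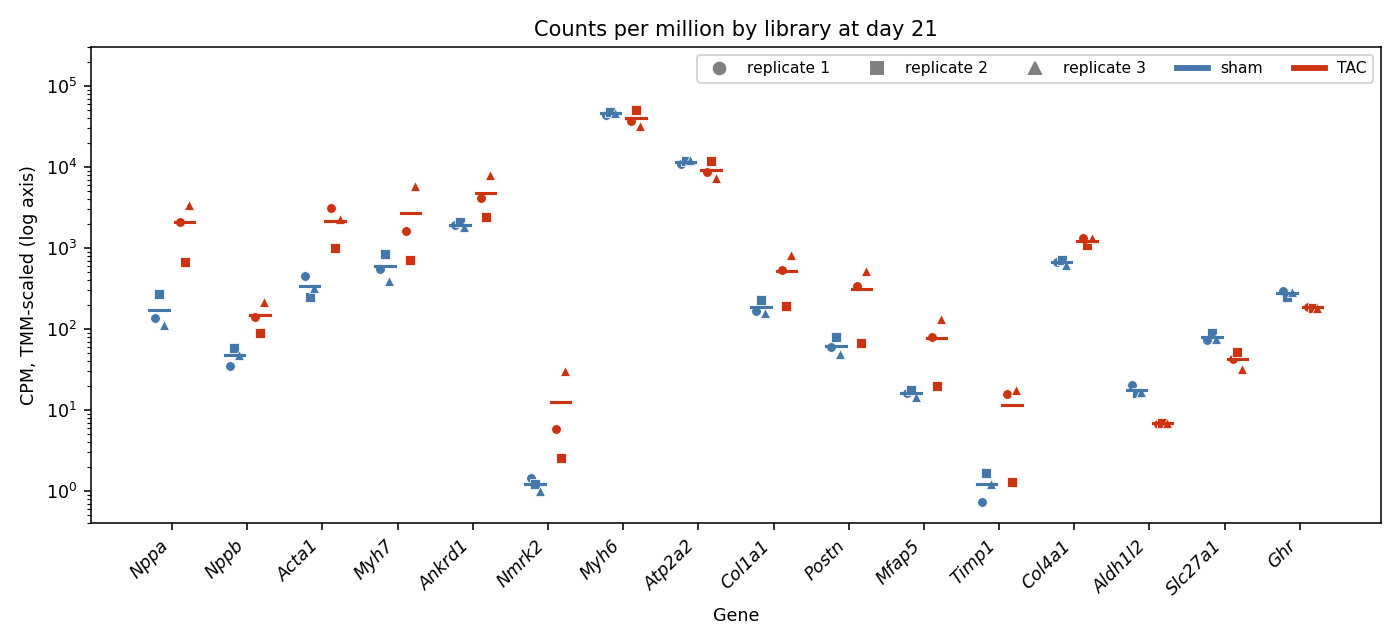
CPM after TMM scaling (log axis) of 16 genes in the 6 libraries of day 21. Blue is sham, red is TAC, symbols give the replicate and bars the group mean. TAC replicate 2 (squares) lies nearest to sham for Nppa, Acta1, Postn and Mfap5, whereas the 3 TAC values of Aldh1l2 and Ghr lie close together below sham.

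The sarcomere list, which does not hold Acta1, Myh7 or Myl1, had log2 fold changes from -0.42 to 0.62. None of the 23 sarcomere genes passed edgeR's test, 3 higher and 1 lower did at an unadjusted p under 0.05, and limma-voom called 0 higher and 0 lower, and DESeq2 1 and 1; the median was -0.01. Myh6, the main adult myosin heavy chain, measured 43799.7, 47948 and 45994 CPM in sham and 37044, 51124 and 32416 CPM in TAC replicates 1, 2 and 3, and these groups overlapped, with a log2 fold change of -0.19 ± 0.20 and an adjusted p of 0.657. Among 20 calcium cycling genes none passed, 2 higher and 4 lower reached an unadjusted p under 0.05, and limma-voom called 0 higher and 0 lower, and DESeq2 0 and 2. Pln, phospholamban, the inhibitor of the sarcoplasmic calcium pump, measured 4735, 4568 and 4948 CPM in sham and 3428, 3659 and 3187 CPM in TAC replicates 1, 2 and 3. All TAC values lay below all sham values, yet the fold change of -0.47 ± 0.13 had an adjusted p of 0.0782. The pump gene Atp2a2 stood at -0.33 ± 0.18 with an adjusted p of 0.344.

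The ion channel and receptor lists are given beside the shares of all genes, of which 0.622% were higher and 0.47% lower past the test. At an unadjusted p under 0.05 these shares were 9.25% and 8.12%. Of 20 potassium channel genes only Kcnj5, a subunit of the acetylcholine-gated channel, fell, with 18 of 20 estimates below 0 and a median of -0.22. Kcnj5 measured 63.5, 77.5 and 66.0 CPM in sham and 43.8, 52.5 and 39.1 CPM in TAC replicates 1, 2 and 3, without overlap, and gave a log2 fold change of -0.61 ± 0.13 and an adjusted p of 0.0316. The sham maximum was in replicate 2, the library with the most Myl7, and without that library the log2 fold change was -0.52 with an adjusted p of 0.12. The call was also lost without sham replicate 1 or 3 or TAC replicate 1 or 3. Such losses were common, since only 3 of 46 named genes past the test passed without each of the 6 libraries of day 21. A pair of members that passed only without TAC replicate 2 were Kcnv2 at -1.29 and Kcnj3 at -0.77 in the full fit. In the list of sodium channels and connexins 0 of 14 passed, 2 higher and 0 lower had an unadjusted p under 0.05, and limma-voom called 0 higher and 0 lower, and DESeq2 2 and 0. Without TAC replicate 2 the count of the sodium channel and connexin list was 2 higher and 0 lower.

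Adra1b, the alpha-1B adrenergic receptor, was the member that fell among 19 adrenergic signalling genes, where 0.47% of all genes fell. It measured 27.5, 34.7 and 26.2 CPM in sham and 15.8, 19.4 and 13.7 CPM in TAC replicates 1, 2 and 3, without overlap, with a log2 fold change of -0.85 ± 0.18 and an adjusted p of 0.0316. In the renin-angiotensin and endothelin list 2 of 17 rose, against 0.622% of all genes. Ace, which makes angiotensin II, measured 99.3, 103 and 101 CPM in sham and 180.0, 119 and 236 CPM in TAC replicates 1, 2 and 3, with TAC replicate 2 just above sham and a log2 fold change of 0.82 ± 0.18 and an adjusted p of 0.0316. Edn3, endothelin 3, measured 1.53, 1.13 and 1.84 CPM in sham and 13.5, 3.14 and 13 CPM in TAC replicates 1, 2 and 3, a gene of few reads, with a log2 fold change of 2.71 ± 0.50 and an adjusted p of 0.0137. The angiotensin receptor gene Agtr1a stood at -0.67 ± 0.18 and did not pass, with an adjusted p of 0.0725. Among 18 cardiac transcription factors only Mef2a, a factor of muscle genes, fell: it measured 407, 367 and 375 CPM in sham and 279, 297 and 282 CPM in TAC replicates 1, 2 and 3, and gave a log2 fold change of -0.42 ± 0.09 and an adjusted p of 0.0316. Without TAC replicate 2 the counts were 2 lower for adrenergic signalling, 2 higher and 1 lower for renin-angiotensin and endothelin, and 2 lower for the transcription factors.

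Lists of extracellular matrix genes differed in how TAC replicate 2 stood, and most of their members did not pass the test. The median difference from the sham mean in TAC replicates 1, 2 and 3 was 0.99, 0.02 and 1.92 for matricellular and elastic fibre genes, 0.48, -0.42 and 1.24 for small proteoglycans, and 0.47, 0.20 and 0.50 for the basement membrane. The clearest matrix calls were in the basement membrane, the sheet that surrounds cardiomyocytes and capillaries. There 4 of 17 tested genes rose and 0 fell, with a median of 0.40: the collagen IV chains Col4a1, Col4a2 and Col4a4, and Sparc, a collagen-binding matricellular protein. Col4a1 measured 676, 719 and 624 CPM in sham and 1316, 1077 and 1321 CPM in TAC replicates 1, 2 and 3. All 3 TAC libraries exceeded all sham libraries, replicate 2 included, and the fit gave a log2 fold change of 0.88 ± 0.18 and an adjusted p of 0.0213. Col4a2, its partner chain, measured 533, 566 and 493 CPM in sham and 960.4, 864 and 981 CPM in TAC replicates 1, 2 and 3, with a log2 fold change of 0.82 ± 0.15 and an adjusted p of 0.0137. Col4a4 rose by 0.69 ± 0.17 (adjusted p = 0.0487) and Sparc by 1.14 ± 0.26 (adjusted p = 0.0401) on the log2 scale. Lama5, a laminin chain, was the member with the clearest negative estimate, at -0.49 ± 0.15 with an adjusted p of 0.113. After leaving out TAC replicate 2, 8 basement membrane genes were higher and 1 lower.

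Of 16 genes listed as fibrillar and fibril-associated collagens 1 passed, Col8a1, although all 16 estimates were positive and the median was 1.35. The collagen that Col8a1 encodes is neither fibrillar nor fibril-associated, so no listed collagen of those types passed in the full fit. At an unadjusted p under 0.05, 15 of 16 were higher, against 9.25% of all genes. Col8a1, a short-chain collagen of vessel walls, measured 35.8, 48.4 and 37.9 CPM in sham and 190.3, 48.1 and 246 CPM in TAC replicates 1, 2 and 3. TAC replicate 2 lay just under sham replicate 2 there, and the fit gave a log2 fold change of 1.99 ± 0.47 and an adjusted p of 0.0456. Col1a1, the main chain of type I collagen, measured 169, 229 and 156 CPM in sham and 529, 194 and 831 CPM in TAC replicates 1, 2 and 3; the groups overlapped and its log2 fold change of 1.49 ± 0.53 had an adjusted p of 0.154. Col3a1 stood at 1.32 ± 0.47 with an adjusted p of 0.15. Without TAC replicate 2, 7 of the 16 passed, Col1a1 (adjusted p = 0.0467) and Col3a1 (adjusted p = 0.0389) among them. That library lay within the sham range for both genes, so leaving it out favours these passes. The list's median difference from the sham mean was 1.23, 0.02 and 1.79 in the TAC replicates.

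Among 22 matricellular and elastic fibre genes only Mfap5, a glycoprotein of elastic microfibrils, rose, with a list median of 1.15 and all 22 estimates positive. Of the 22, 15 were higher at an unadjusted p under 0.05, and without TAC replicate 2 the test passed 10. Mfap5 measured 16.0, 17.7 and 14.6 CPM in sham and 80.4, 19.9 and 134 CPM in TAC replicates 1, 2 and 3. TAC replicate 2 was only slightly above sham. The fit gave a log2 fold change of 2.29 ± 0.47 and an adjusted p of 0.025. Postn, periostin, which activated fibroblasts secrete, measured 59.9, 79.0 and 48.5 CPM in sham and 339, 67.2 and 523 CPM in TAC replicates 1, 2 and 3. Replicate 2 lay within the sham range, and the fold change of 2.31 ± 0.63 missed the threshold with an adjusted p of 0.0705, or 0.0118 without that library. Cilp, a cartilage and scar matrix protein, measured 14.3, 33.7 and 18.3 CPM in sham and 184, 14.1 and 354 CPM in TAC replicates 1, 2 and 3, with a log2 fold change of 3.08 ± 0.76 and an adjusted p of 0.0511. TAC replicate 2 was slightly below sham replicate 1 there, while replicates 1 and 3 were far above sham. Ctgf, connective tissue growth factor, stood at 1.17 ± 0.47 with an adjusted p of 0.196.

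Enzymes of matrix assembly and turnover are given beside the 0.622% of all genes that were higher past the test. Of 16 genes of collagen crosslinking and folding, P4ha1, a subunit of collagen prolyl hydroxylase, rose: it measured 45.5, 46.3 and 44.4 CPM in sham and 79.4, 52.2 and 91.9 CPM in TAC replicates 1, 2 and 3, and gave a log2 fold change of 0.72 ± 0.17 and an adjusted p of 0.0487. Lox, lysyl oxidase, stood at 2.46 ± 0.84 with an adjusted p of 0.141. Of 22 matrix proteases and inhibitors none passed edgeR's test, 7 higher and 0 lower had an unadjusted p under 0.05, and limma-voom called 0 higher and 0 lower, and DESeq2 3 and 0. Timp1, the inhibitor of metalloproteinases, measured 0.728, 1.69 and 1.22 CPM in sham and 15.7, 1.31 and 17.5 CPM in TAC replicates 1, 2 and 3; replicate 2 was at sham level, and the log2 fold change was 3.28 ± 1.02 with an adjusted p of 0.108. Of 10 small proteoglycans 0 passed, with 3 higher and 0 lower at an unadjusted p under 0.05, and limma-voom called 0 higher and 0 lower, and DESeq2 0 and 0; Bgn, biglycan, stood at 1.21 ± 0.38 with an adjusted p of 0.111. With TAC replicate 2 left out, 4 genes of crosslinking and folding, 3 proteases or inhibitors and 3 small proteoglycans were higher.

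Fibroblast markers were summed beside these matrix genes. The lists share members, among them Mfap5, Postn and Cilp, so that their values are not independent. Of 16 resident fibroblast markers 3 rose, Cd34, Mfap5 and Pi16, with a median of 0.33. Their estimates were positive for 12 and negative for 4, down to -0.23. At an unadjusted p under 0.05, 7 were higher and 0 lower. The resident markers summed to 2920.0, 3244 and 2758 CPM in the sham replicates and to 3679, 2669 and 4483 CPM in the TAC replicates, so that replicate 2 was again the lowest TAC library. Cd34, a surface glycoprotein that endothelium also carries, measured 84.0, 91.6 and 85.5 CPM in sham and 132, 108 and 136 CPM in TAC replicates 1, 2 and 3, without overlap, with a log2 fold change of 0.52 ± 0.11 and an adjusted p of 0.0228. Pi16, a peptidase inhibitor of fibroblasts, gave a log2 fold change of 1.02 ± 0.25 and an adjusted p of 0.0487, with TAC replicate 2 inside the sham range. Of 18 activated fibroblast markers 0 passed, 11 higher and 0 lower had an unadjusted p under 0.05, and limma-voom called 0 higher and 0 lower, and DESeq2 3 and 0; the median was 1.61. Their summed level was 397, 396 and 356 CPM in sham and 1051, 346 and 1996 CPM in TAC. When TAC replicate 2 was left out, 6 of the 18 activated markers and 6 of the 16 resident markers were higher. Acta2, Tagln and Cnn1, the contractile markers of myofibroblasts and smooth muscle, stood at 0.06, 0.01 and -0.15. In whole tissue, a different number of cells of a type and a different amount of RNA per cell cannot be told apart, here and in the groups below. How far the number of fibroblasts accounts for the matrix values was not tested.

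**Figure D3:**
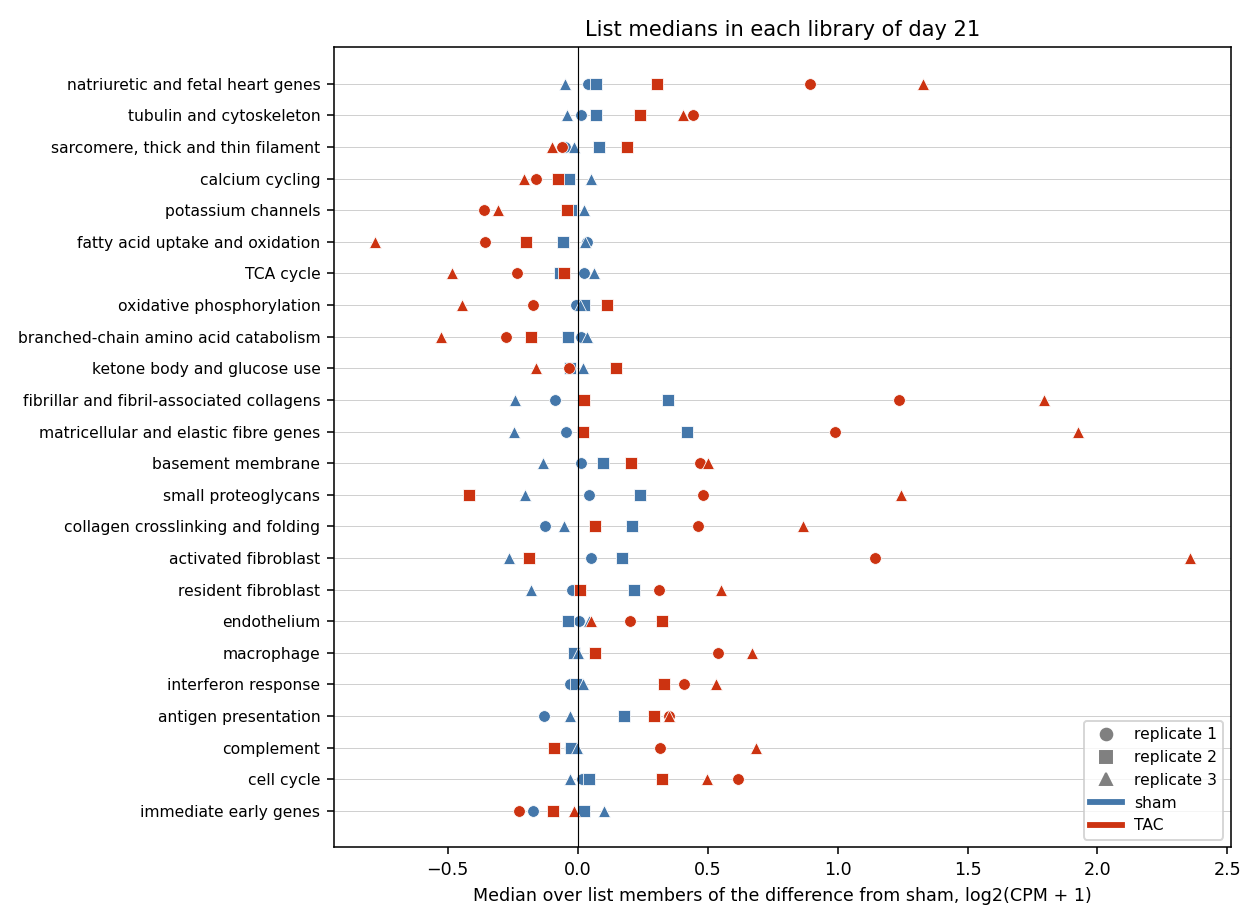
Median over the members of each list of the difference from the sham mean, on the log2(CPM + 1) scale (x axis), for 24 lists (y axis) in the 6 libraries of day 21. Blue is sham, red is TAC and symbols give the replicate. For collagens and activated fibroblast markers TAC replicate 2 (square) sits near the sham libraries and replicates 1 and 3 lie to the right.

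Genes of mitochondrial energy metabolism were lower by small amounts, mostly without passing the test. Of 30 genes of fatty acid uptake and oxidation 1 fell, Slc27a1, a fatty acid transport protein; 27 estimates were negative and the median was -0.38. At an unadjusted p under 0.05, 18 of 30 were lower, against 8.12% of all genes. Slc27a1 measured 73.5, 89.1 and 74.6 CPM in sham and 42.6, 51.5 and 32.4 CPM in TAC replicates 1, 2 and 3, without overlap, with a log2 fold change of -0.91 ± 0.20 and an adjusted p of 0.0316. Hadhb and Acaa2, enzymes of the last steps of beta-oxidation, stood at -0.50 ± 0.17 and -0.75 ± 0.25; both were in the set of 4 members that passed without TAC replicate 2. The median difference from sham was -0.36, -0.20 and -0.78 in TAC replicates 1, 2 and 3, so that all 3 libraries lay below sham.

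All 22 TCA cycle genes had negative estimates with a median of -0.26, yet 0 passed: 0 higher and 8 lower had an unadjusted p under 0.05, and limma-voom called 0 higher and 0 lower, and DESeq2 0 and 0. The member with the smallest p was Cs, citrate synthase, at -0.38 ± 0.13 with an adjusted p of 0.146. All 20 genes of branched-chain amino acid catabolism were likewise negative with a median of -0.32; 0 passed, 0 higher and 13 lower had an unadjusted p under 0.05, and limma-voom called 0 higher and 0 lower, and DESeq2 0 and 2. Acadsb, a short branched-chain acyl-CoA dehydrogenase, came closest at -0.34 ± 0.08 with an adjusted p of 0.0512. After leaving out TAC replicate 2, 4 branched-chain amino acid genes and 1 TCA cycle gene were lower. Of 47 oxidative phosphorylation genes 1 fell, the complex IV subunit gene Cox7c, and the median was -0.17. Cox7c measured 77.8, 93.4 and 79.2 CPM in sham and 60.3, 48.2 and 59.2 CPM in TAC replicates 1, 2 and 3, but it has near-identical pseudogene copies and its count is uncertain. The oxidative phosphorylation median was -0.17, 0.11 and -0.45 in the TAC replicates, above sham in replicate 2 and below it in the other 2 libraries. Ventricular markers moved the same way between these libraries, at 74293, 94232 and 66427 summed CPM, and their part in the metabolic values was not tested.

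The carnitine transporter Slc22a5 and the mitochondrial NAD kinase Nadk2 also fell. Slc22a5 measured 19.7, 25.2 and 18.5 CPM in sham and 12.2, 14.3 and 11.3 CPM in TAC replicates 1, 2 and 3, with a log2 fold change of -0.74 ± 0.16 and an adjusted p of 0.0318. Nadk2 measured 93.1, 88.2 and 90.1 CPM in sham and 53.9, 59.4 and 46.4 CPM in TAC replicates 1, 2 and 3, with a log2 fold change of -0.77 ± 0.18 and an adjusted p of 0.0385. Neither gene's groups overlapped. Aldh1l2, the mitochondrial enzyme that oxidises formyl-tetrahydrofolate, measured 20.2, 16.4 and 16.6 CPM in sham and 6.68, 6.98 and 7.00 CPM in TAC replicates 1, 2 and 3. The TAC values were nearly equal, TAC replicate 2 included, and the fit gave a log2 fold change of -1.36 ± 0.19 and an adjusted p of 0.00403. Aldh1l2 and Nppa were the 2 named genes that passed under every alternative processing.

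In the list of ketone body and glucose use 3 of 26 rose and 0 fell, while the median was 0.02. Bdh1, which interconverts acetoacetate and hydroxybutyrate, measured 74.2, 84.6 and 76.5 CPM in sham and 223, 156 and 158 CPM in TAC replicates 1, 2 and 3. All 3 TAC libraries exceeded sham clearly, and the fit gave a log2 fold change of 1.19 ± 0.26 and an adjusted p of 0.0316. Pfkp, the platelet isoform of phosphofructokinase, measured 57.1, 55.4 and 57.1 CPM in sham and 105, 72.8 and 122 CPM in TAC replicates 1, 2 and 3, with a log2 fold change of 0.82 ± 0.16 and an adjusted p of 0.0213. Hk1, hexokinase 1, rose slightly but evenly: it measured 156, 163 and 154 CPM in sham and 192, 203 and 209 CPM in TAC replicates 1, 2 and 3, with a log2 fold change of 0.35 ± 0.07 and an adjusted p of 0.025. The muscle isoform gene Pfkm and the heart glucose transporter gene Slc2a4 stood at -0.27 and -0.28 and did not pass. The ketone enzyme genes Oxct1 and Acat1 stood at -0.12 and -0.29 and did not pass either. With TAC replicate 2 left out, 4 genes of this list were higher.

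Of 20 metabolic regulators 1 passed the test on counts, Nmrk2, the muscle nicotinamide riboside kinase that feeds NAD synthesis, but the authors' 2 tables disagree on this gene. By counts it measured 1.46, 1.22 and 0.994 CPM in sham and 5.79, 2.53 and 29.9 CPM in TAC replicates 1, 2 and 3. TAC replicate 3 was several times the other TAC libraries, replicate 2 was the lowest of them though above all sham libraries, and the fit gave a log2 fold change of 3.39 ± 0.65 and an adjusted p of 0.0164. In the deposited RPKM table it stood at 16.5, 18.9 and 22.4 in sham and at 16.2, 19.7 and 24.1 in TAC replicates 1, 2 and 3, a log2 difference of 0.05 with overlapping groups. Its direction after TAC is therefore not settled by these tables, and the call on counts was also lost without TAC replicate 3 or without any 1 sham library of day 21. Of the other regulators, 8 were lower at an unadjusted p under 0.05, and the median was -0.16. Nampt, the other main entry enzyme of NAD salvage, stood at -0.71 ± 0.21 with an adjusted p of 0.0874. Among 13 genes of the creatine and adenylate shuttle 0 passed, 3 higher and 0 lower had an unadjusted p under 0.05, and limma-voom called 0 higher and 0 lower, and DESeq2 1 and 0. Ckb, brain-type creatine kinase, stood at 0.38 ± 0.10 and Ckm, the muscle type, at -0.17 ± 0.24; the sign of Ckm changed when TAC replicate 3 was left out. When TAC replicate 2 was left out, 2 regulators were lower and 1 was higher, and 1 shuttle gene was lower.

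**Figure D4:**
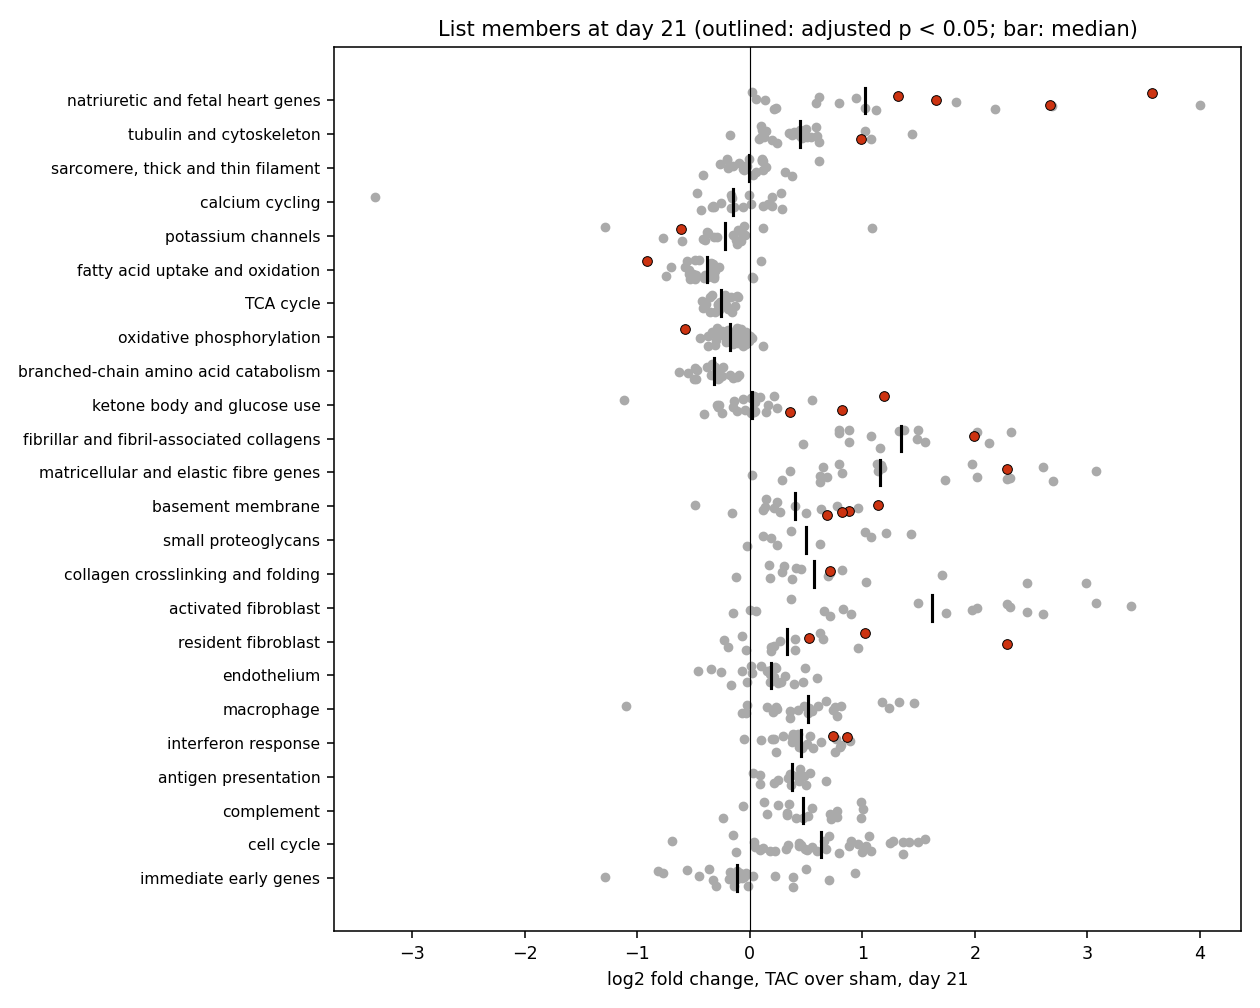
Log2 fold change of TAC over sham at day 21 (x axis) for the tested members of 24 lists (y axis). Points outlined in black passed the test, grey points did not, and the black bar is the list median. Members of the collagen and matricellular lists lie to the right with few outlined points, and the TCA cycle and branched-chain amino acid lists lie wholly to the left of 0.

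Genes of the interferon response and of antigen presentation lay modestly above sham in all 3 TAC libraries. In the interferon response list 2 of 24 rose, 23 estimates were positive and the median was 0.45; 13 were higher at an unadjusted p under 0.05. Bst2, tetherin, which holds budding virus at the cell surface, measured 13, 13.7 and 10.8 CPM in sham and 23.4, 23.0 and 22.0 CPM in TAC replicates 1, 2 and 3. Its TAC values were nearly equal and above all sham values, with a log2 fold change of 0.87 ± 0.17 and an adjusted p of 0.0166. Rsad2, viperin, measured 22.7, 20.4 and 21.0 CPM in sham and 36.6, 33.1 and 37.5 CPM in TAC replicates 1, 2 and 3, without overlap, with a log2 fold change of 0.74 ± 0.18 and an adjusted p of 0.0458. The list's median difference from sham was 0.41, 0.33 and 0.53 in the TAC replicates, a closer spread than that of the collagens. All 16 antigen presentation genes had positive estimates with a median of 0.37; 0 passed, 3 higher and 0 lower had an unadjusted p under 0.05, and limma-voom called 0 higher and 0 lower, and DESeq2 0 and 0. B2m, the light chain of class I molecules, stood at 0.53 ± 0.18 with an adjusted p of 0.141.

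Macrophage markers gave a median of 0.51, with 0 of 25 past the test, 9 higher and 1 lower at an unadjusted p under 0.05, and limma-voom called 0 higher and 0 lower, and DESeq2 1 and 0. C1qb, a complement component that tissue macrophages make, measured 29.0, 27.5 and 23.8 CPM in sham and 51.1, 33.5 and 52.5 CPM in TAC replicates 1, 2 and 3, without overlap, with a log2 fold change of 0.77 ± 0.21 and an adjusted p of 0.068. The macrophage markers summed to 367 to 393 CPM in sham and 419.7 to 544 CPM in TAC. In the complement list 0 of 19 passed, 8 higher and 0 lower had an unadjusted p under 0.05, and limma-voom called 0 higher and 0 lower, and DESeq2 1 and 0; the median was 0.47. Of 7 tested lymphocyte markers 0 passed, with 2 higher and 0 lower at an unadjusted p under 0.05 and a summed level of 15.1 to 16.7 CPM in sham and 22.1 to 23.6 CPM in TAC. For these limma-voom called 0 higher and 0 lower, and DESeq2 1 and 0. Of 6 neutrophil markers 0 passed, with 0 higher and 1 lower at an unadjusted p under 0.05, and limma-voom called 0 higher and 0 lower, and DESeq2 0 and 0; S100a9 stood at -1.59 ± 0.76. Their summed level was 9.47 to 11.0 CPM in sham and 10.7 to 13.6 CPM in TAC. After leaving out TAC replicate 2, 2 macrophage and 3 complement genes were higher.

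Endothelial markers lay slightly above sham, with a median of 0.19; 0 of 24 passed, 9 higher and 1 lower had an unadjusted p under 0.05, and limma-voom called 0 higher and 0 lower, and DESeq2 2 and 0. Erg, an endothelial transcription factor, stood at 0.40 ± 0.11 with an adjusted p of 0.0843. In the list of pericyte and smooth muscle markers 0 of 16 passed, 5 higher and 1 lower had an unadjusted p under 0.05, and limma-voom called 0 higher and 0 lower, and DESeq2 3 and 0; Des, desmin, stood at 0.44 ± 0.12. Genes of the cell cycle were above sham in all 3 TAC libraries, with a median of 0.63 and 33 of 36 estimates positive, but 0 passed, 9 higher and 0 lower had an unadjusted p under 0.05, and limma-voom called 0 higher and 0 lower, and DESeq2 1 and 0. Mki67, the proliferation antigen, measured 37.2, 30.8 and 29.8 CPM in sham and 74.4, 68.7 and 63.8 CPM in TAC replicates 1, 2 and 3. All 3 TAC libraries exceeded sham, and the fold change of 1.08 ± 0.40 had an adjusted p of 0.171. Foxm1, a factor of mitotic genes, stood at 1.49 ± 0.47 with an adjusted p of 0.113. With TAC replicate 2 left out, 2 pericyte and smooth muscle markers were higher and 1 cell cycle gene was lower.

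Of 26 tubulin and cytoskeleton genes 1 rose, Tuba1c, an alpha-tubulin, and 25 estimates were positive, with a median of 0.44. Tuba1c measured 6.77, 6.77 and 7.65 CPM in sham and 14.1, 12.5 and 15.5 CPM in TAC replicates 1, 2 and 3, without overlap, with a log2 fold change of 0.99 ± 0.22 and an adjusted p of 0.0347; alpha-tubulin genes are near-identical in sequence, so its count is uncertain. Tubb2a, a beta-tubulin, stood at 1.08 ± 0.31 with an adjusted p of 0.0903. For immediate early genes the median was -0.12, 0 of 26 passed, 2 higher and 6 lower had an unadjusted p under 0.05, and limma-voom called 0 higher and 0 lower, and DESeq2 0 and 0. Zfp36, an mRNA decay factor, stood at -0.45 ± 0.14 and Fos at -1.29 ± 0.55. When TAC replicate 2 was left out, 3 tubulin and cytoskeleton genes were higher and 2 immediate early genes lower.

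Further genes past the test had no place in the lists above. Lrrc17, a secreted leucine-rich repeat protein, measured 118, 83.0 and 77.1 CPM in sham and 239.9, 173 and 298 CPM in TAC replicates 1, 2 and 3. Its groups did not overlap and it passed without each of the 6 libraries of day 21, with a log2 fold change of 1.36 ± 0.20 and an adjusted p of 0.00403 in the full fit. Bcl2, which blocks apoptosis, rose from 24.7 ± 3.87 to 48.2 ± 14.1 CPM (mean ± SD, n = 3 each), with a log2 fold change of 0.96 ± 0.17 and an adjusted p of 0.0137. Bcl2l11, which encodes the pro-apoptotic protein Bim, fell from 19.8 ± 0.624 to 12 ± 3.38 CPM, with a log2 fold change of -0.72 ± 0.17 and an adjusted p of 0.0456. Myl1, a skeletal muscle myosin light chain, measured 34.2, 35.6 and 32.7 CPM in sham and 106, 46.8 and 84.9 CPM in TAC replicates 1, 2 and 3, with a log2 fold change of 1.21 ± 0.27 and an adjusted p of 0.0335. Ackr4, an atypical chemokine receptor that takes up ligands, rose from 4.03 ± 0.607 to 9.94 ± 3.21 CPM, with a log2 fold change of 1.30 ± 0.29 and an adjusted p of 0.0358. Lxn, latexin, a carboxypeptidase inhibitor, rose from 4.92 ± 0.927 to 9.73 ± 1.67 CPM, with a log2 fold change of 0.99 ± 0.21 and an adjusted p of 0.0276.

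Among genes that fell, Irx2, an Iroquois homeobox factor, measured 9.10, 18.1 and 12.2 CPM in sham and 4.81, 4.97 and 5.30 CPM in TAC replicates 1, 2 and 3. The TAC values were close together below all sham values, the highest sham value was in replicate 2, and the fit gave a log2 fold change of -1.37 ± 0.31 and an adjusted p of 0.0372. Without that library it was -1.08 with an adjusted p of 0.145, and the call was also lost without sham replicate 1 or 3 or TAC replicate 1 or 3. Il15, an interleukin of muscle and stroma, measured 21.6, 21.9 and 20.8 CPM in sham and 12.5, 12.3 and 9.06 CPM in TAC replicates 1, 2 and 3, with a log2 fold change of -0.93 ± 0.23 and an adjusted p of 0.0487. Synj2, an inositol phosphatase, fell from 107 ± 2.42 to 65.7 ± 10.8 CPM, with a log2 fold change of -0.71 ± 0.12 and an adjusted p of 0.0132. Abca12, a lipid transporter known from skin, fell from 12.6 ± 0.621 to 5.16 ± 1.93 CPM, with a log2 fold change of -1.30 ± 0.22 and an adjusted p of 0.0102. Kcna2, a voltage-gated potassium channel, fell by 0.98 and Rgs7bp, a membrane anchor of RGS proteins, fell by 0.94 on the log2 scale. Sgol2, shugoshin, which guards centromeric cohesion, fell by 0.64, and Pcdhga2, whose exons are shared in the protocadherin gamma cluster and whose count is uncertain, fell by 0.65.

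Some genes that fell encode hormone or peptide receptors; those named here were chosen after their values were seen and form no tested group. Ghr, the growth hormone receptor, measured 294, 252 and 286 CPM in sham and 188, 184 and 184 CPM in TAC replicates 1, 2 and 3. The 3 TAC values were almost equal and below all sham values, with a log2 fold change of -0.58 ± 0.09 and an adjusted p of 0.00898. Lepr, the leptin receptor, measured 7.35, 9.03 and 7.65 CPM in sham and 2.85, 3.66 and 4.64 CPM in TAC replicates 1, 2 and 3, with a log2 fold change of -1.09 ± 0.22 and an adjusted p of 0.0227. Prlr, the prolactin receptor, fell from 33.2 ± 3.73 to 21.5 ± 4.24 CPM, with an adjusted p of 0.0426. Nr3c2, the mineralocorticoid receptor, fell from 49.8 ± 3.12 to 32.6 ± 3.56 CPM, with an adjusted p of 0.0372. Ramp1, the partner of the CGRP receptor, fell from 6.62 ± 0.942 to 2.35 ± 0.843 CPM, with an adjusted p of 0.0251.

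Most genes past the test at day 21 moved the same way at earlier days, which were measured in other hearts with their own sham controls. At days 2, 4 and 7, 4.58%, 24.6% and 23.2% of genes passed, against 1.09% at day 21. The shares were 3.73% higher and 0.854% lower at day 2, 14.4% and 10.1% at day 4, and 13.1% and 10% at day 7. With day 4 the list of day 21 shared 100 genes, 66.2% of the day 21 list and 2.95% of the day 4 list, and 98 of the 100 had the same sign. With day 7 it shared 89 genes, 58.9% and 2.78% of each list, all 89 of the same sign. With day 2 it shared 26 genes, 17.2% and 4.11%, of which 24 had the same sign. At any p, 125, 145 and 142 of the 151 genes had the same sign at days 2, 4 and 7. The share of all genes tested with the same sign was not computed, so these counts have no share to be read against. In all, 16 genes passed at each of the 4 days.

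The values of the main genes and lists at the earlier days stood as follows beside those of day 21. The log2 fold change of Nppa was 2.57, 3.40 and 3.50 at days 2, 4 and 7, against 3.58 at day 21, and that of Acta1 was 2.24, 3.62 and 2.39 against 2.67. For Nppb it was 1.92, 1.40 and 2.27 against 1.65. The median of the fetal gene list went 1.62, 1.64 and 1.11 and then 1.02. Collagens gave 0.66, 2.86 and 2.32 and then 1.35, and cell cycle genes 1.68, 2.42 and 2.66 and then 0.63, with 20, 27 and 32 of 36 higher past the test at days 2, 4 and 7 and 0 at day 21. Fatty acid genes gave -0.35, -0.64 and -0.66 and then -0.38. Interferon genes gave -0.26, 0.72 and 0.64 and then 0.45. Macrophage markers gave 0.69, 1.53 and 0.84 and then 0.51.

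**Figure D5:**
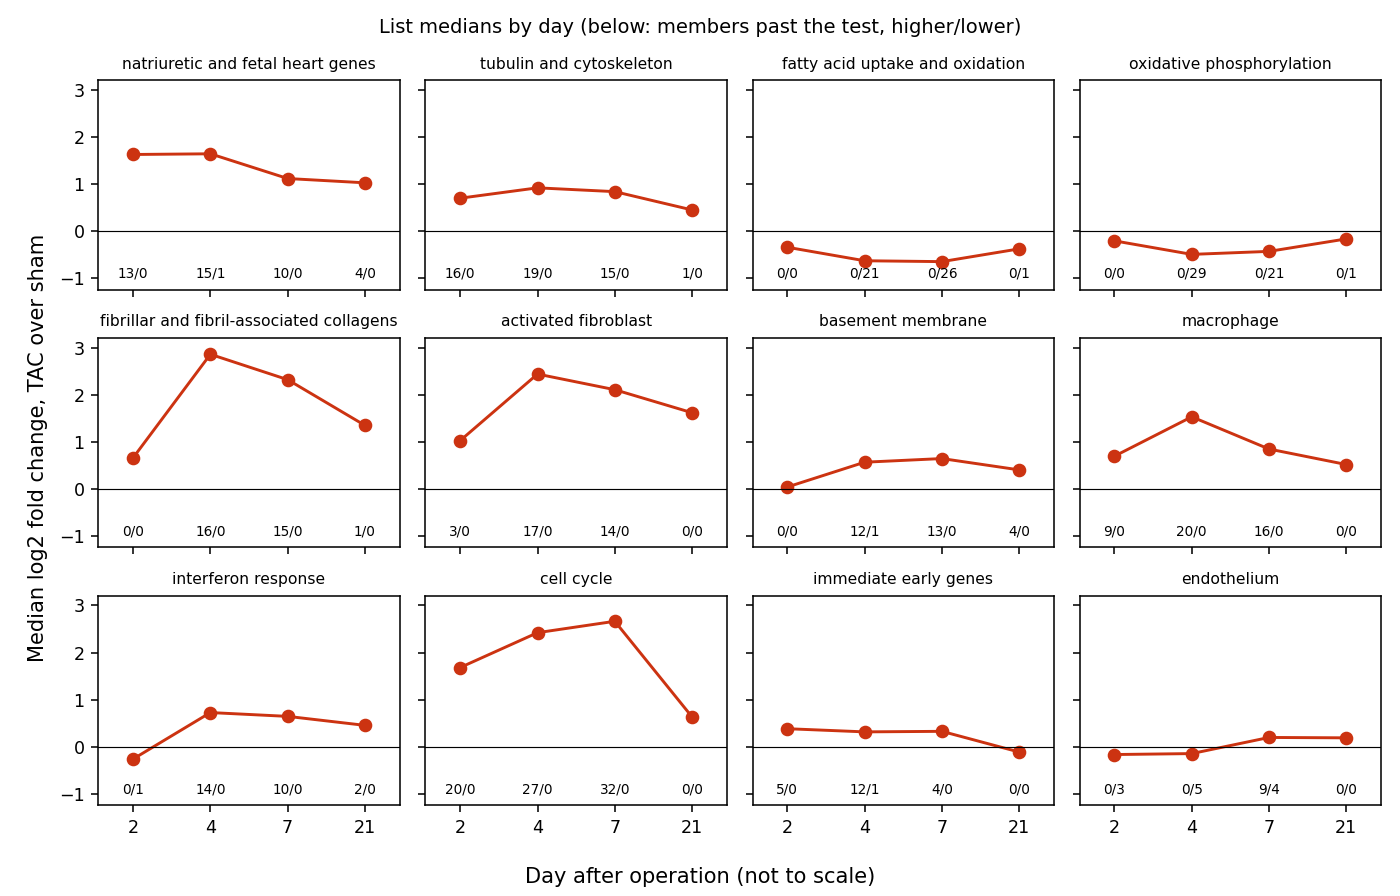
Median log2 fold change of TAC over sham for 12 lists (y axis) at days 2, 4, 7 and 21 (x axis, evenly spaced and not to scale). Numbers under the points are the members past the test, higher and lower. The cell cycle median drops from 2.66 at day 7 to 0.63 at day 21, and the natriuretic and fetal median ends at 1.02.

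Whether the effect at day 21 differed from the earlier days was tested directly, as day 21 minus the mean of days 2, 4 and 7. Only Mastl, a kinase of mitotic entry, passed edgeR's test, 0.00724% of genes, by -3.02 ± 0.48 with an adjusted p of 0.0394. DESeq2 called 57 genes and limma-voom 0. When 1 library of day 21 was left out, Mastl still passed only without sham replicate 2. It was not among the genes past the test on log2(RPKM + 1). At an unadjusted p under 0.05, 1439 genes (10.4%) differed, 632 with a higher (4.57%) and 807 with a lower effect (5.84%) at day 21. Mastl is a gene of few reads: it measured 1.75, 1.13 and 2.68 CPM in sham and 1.51, 0.698 and 1.18 CPM in TAC replicates 1, 2 and 3 at day 21. The groups overlapped there, and its log2 fold change was -0.72 ± 0.42 at day 21 against 1.29, 3.15 and 2.47 at days 2, 4 and 7. The lower medians of collagens and cell cycle genes at day 21 are thus descriptions, since 0 of these members passed the test of the difference. At an unadjusted p under 0.05 the difference was lower for 22 of 36 cell cycle genes and 0 of 16 collagens, against 5.84% of all genes.

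There were 29 genes past the test at day 21 and at no earlier day, 17 higher and 12 lower, and 0 of these passed the test of the difference from earlier days. Bdh1 was among them, with log2 fold changes of -0.82, 0.26 and 0.44 at days 2, 4 and 7 and a difference of 1.23 (adjusted p = 0.186). Lepr gave -0.05, 0.46 and 0.41 and a difference of -1.37 (adjusted p = 0.125). Podxl, a sialomucin of endothelium and mesothelium, measured 232, 234 and 249 CPM in sham and 309.7, 351 and 329 CPM in TAC replicates 1, 2 and 3, without overlap, and gave 0.03, -0.18 and -0.01 earlier with a difference of 0.53 (adjusted p = 0.128). Cygb, cytoglobin, an oxygen-binding protein of fibroblasts and pericytes, measured 78.8, 85.2 and 74.6 CPM in sham and 120.2, 106 and 134 CPM in TAC replicates 1, 2 and 3 and gave 0.02, 0.17 and 0.17 earlier. Mef2a and Irx2, described above, also belong to this set. Podxl and Cygb were named after their values were seen.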

How the data were processed

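Counts per gene symbol and RPKM values were deposited by the authors for 24 libraries of mouse left ventricle. Per the submitters' processing notes the tools were TopHat and DESeq and the build hg19; hg19 is human, so it does not describe these mouse symbols. The mouse build, the annotation, the counting tool and its strand setting were not given in the sources used here. Per the labels' protocols, libraries were made with a NuGEN Ovation kit and sequenced on an Illumina NextSeq500. The deposited RPKM table, reads per kilobase scaled to depth by the authors, served only as an alternative.

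The count table held 24015 genes, and filterByExpr kept 13816, with 99.96% of counts. In R 4.3.3 with edgeR 4.0.16, libraries were scaled by TMM and a quasi-likelihood model with 8 group means over 24 libraries (16 residual degrees of freedom) tested TAC against sham at day 21 and the difference from the mean of the other days. Tests were two-sided, and the Benjamini-Hochberg adjustment ran over the whole set tested. The SE is the log2 fold change divided by the square root of F. Library totals at day 21 were 10.7 to 13.8 M (M is 1000000) and the biological coefficient of variation was 0.146, so the spread between libraries limits precision. Alternatives used DESeq2 1.42.0, limma 3.58.1 (voom, and log2(RPKM + 1) or log2(RPKM + 0.1) with a minimum of 1 RPKM in 3 libraries), other filters and scaling, a replicate block, and leaving out libraries. Leaving out the libraries with over 30 CPM of Myl7, or both number 2 libraries of day 21, was chosen after seeing the data. So was the choice to give list counts without TAC replicate 2 or sham replicate 2 of day 21.

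The comparison, the 58 gene lists (1044 symbols, 974 tested) and the naming rule were chosen with earlier results of these data known. Named were the 14 largest and 14 smallest fold changes where the adjusted p was under 0.05, the mean log2 CPM was 3 or more and the libraries of both groups did not overlap; 12 fixed heart genes; and per list up to 4 members past the test, plus up to 2 against the list's direction, or the member with the smallest p. Genes named beyond that were chosen after their values were seen, and a few genes are not reported here. On simulated counts of 13816 genes with 200 changed, the fit for this comparison found 35% of 1.5-fold and 72% of 2-fold changes, and 6.14% of 114 calls were false. These counts gave TAC and sham the same spread for each gene and held no outlying library. The real TAC libraries differed more among themselves than the sham libraries, so these shares may not hold for them.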

Additional observations from a re-analysis of the deposited data

Results flagged for a closer look

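Effects of TAC that differed between day 21 and earlier days, by edgeR's test of the difference, are listed here; a gap test for a single outlying sample was not run, since each group holds 3 libraries. Against the mean of days 2, 4 and 7, the effect on Mastl was lower at day 21 by -3.02 on the log2 scale. Against day 4 alone the difference for Mastl was -3.88, and against day 7 it was -3.19. Against day 2 the effect was higher at day 21 for Rsad2, by 1.47, and for Trp53i11, a p53-induced gene, by 1.2; both were below sham at day 2 (-0.73 and -0.69) and above sham at day 21 (0.74 and 0.51).

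Against day 7 a further 8 genes differed. The effect was lower at day 21 for Mest, an imprinted gene, by -2.1, for Adam19, a metalloprotease, by -1.09, for the histone gene Hist3h2a by -1.09 and for Arhgap18 by -0.76. It was higher for Cxcl14, a chemokine, by 1.94, for Lrrc17 by 1.63, for Lmcd1, a LIM protein of muscle, by 0.83 and for Rab3ip by 0.56. Cxcl14 changed sign, from -1.46 at day 7 to 0.48 ± 0.24 at day 21. The estimates of Lrrc17, Lmcd1, Rab3ip, Arhgap18 and Mastl also changed sign between these days. At an unadjusted p under 0.05, 1142 genes differed from day 2, 1512 from day 4 and 1574 from day 7. No cause was tested for any of them.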

How the results depend on the processing

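Against 151 genes past the test (86 higher, 65 lower), DESeq2 called 436 (241 and 195), limma-voom 87 (46 and 41) and the fit of the 6 libraries alone 30 (22 and 8). On log2(RPKM + 1) it was 122 (55 and 67), on log2(RPKM + 0.1) 121 (59 and 62) and on log2(RPKM + 1) with no filter 54 (22 and 32). In that order, these sets held 89, 91 and 44 of the 151 genes. RLE scaling gave 151 (84 and 67), no count filter 136 and a stricter filter 158. Without the libraries rich in Myl7 it was 3 (1 and 2). Without both number 2 libraries of day 21 it was 204 (125 and 79), with 91 of the 151 genes among them. Leaving out 1 library at a time gave 7 to 575 genes, 4 to 325 higher and 3 to 250 lower; fewer samples remained in these fits. The labels name no pairing by replicate number. Same-numbered deviations at day 21 correlated by 0.0225, -0.0547 and -0.149 over all genes tested. With 3 libraries per group this cannot exclude a pairing that acts on some genes. With the replicate block 24 genes passed (13 and 11). For day 21 minus earlier days, with 1 gene in the main test, DESeq2 called 57, limma-voom 0, the replicate block 0, log2(RPKM + 0.1) 0, log2(RPKM + 1) with no filter 2, and both reduced sets 0; leaving out 1 library gave 0 to 27, the highest without TAC replicate 1 of day 2. Of 46 named genes past the test none changed sign in up to 36 alternatives, and 2 passed in all of them, Aldh1l2 and Nppa. With each of the 6 libraries of day 21 left out in turn, 3 of the 46 passed every time, Aldh1l2, Nppa and Lrrc17. Cfd, at 1.01, became -0.16 with limma-voom, -0.36 on log2(RPKM + 0.1) and ran from -1.73 (without TAC replicate 3) to 1.53 with 1 library left out; Ckm, at -0.17, ran from -0.417 to 0.0521 (without TAC replicate 3). Nmrk2, at 3.39 by counts, was 0.044 on log2(RPKM + 1). The causes were not tested. Genes of few reads, such as Edn3 and Mastl, are limited by depth.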

Other observations

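In the growth factor and related lists here 0 members passed edgeR's test. Of all genes 0.622% were higher and 0.47% lower, so 0 in lists of this size is near the share. At an unadjusted p under 0.05, 9.25% of all genes were higher and 8.12% lower. DESeq2 called 1.74% higher and 1.41% lower, and limma-voom 0.333% and 0.297%. In the TGF-beta, activin and BMP list 0 of 28 passed, with 6 higher and 4 lower at an unadjusted p under 0.05 and a median of 0.18; limma-voom called 0 higher and 0 lower, and DESeq2 1 and 0. Fstl1, a follistatin-like glycoprotein, measured 76.7, 77.3 and 67.3 CPM in sham and 200.5, 85.1 and 286 CPM in TAC replicates 1, 2 and 3, without overlap, with a log2 fold change of 1.37 ± 0.38 and an adjusted p of 0.0725. Acvrl1, a receptor of this family that is not in the list, rose: it measured 25.2, 22.7 and 21.8 CPM in sham and 33.4, 30.4 and 35.0 CPM in TAC replicates 1, 2 and 3, with a log2 fold change of 0.50 and an adjusted p of 0.0456; it was named after its values were seen. In the Wnt and Notch list 0 of 21 passed, with 5 higher and 3 lower at an unadjusted p under 0.05 and a median of 0.08; limma-voom called 0 higher and 0 lower, and DESeq2 1 and 0; Heyl, a Notch target, stood at 0.44 ± 0.12. In the insulin-like growth factor list 0 of 13 passed, with 4 higher and 1 lower at an unadjusted p under 0.05 and a median of 0.02; limma-voom called 0 higher and 0 lower, and DESeq2 2 and 0; Igfbp7 stood at 1.05 ± 0.27 with an adjusted p of 0.0574. For VEGF and angiopoietin genes 0 of 16 passed, with 3 higher and 2 lower at an unadjusted p under 0.05 and a median of 0.04; limma-voom called 0 higher and 0 lower, and DESeq2 0 and 0. For neuregulin and EGF genes 0 of 12 passed, with 1 higher and 1 lower at an unadjusted p under 0.05 and a median of -0.13; limma-voom called 0 higher and 0 lower, and DESeq2 0 and 1. Among integrins 0 of 18 passed, with 6 higher and 1 lower at an unadjusted p under 0.05 and a median of 0.18; limma-voom called 0 higher and 0 lower, and DESeq2 1 and 1. Among imprinted growth genes 0 of 13 passed, with 3 higher and 0 lower at an unadjusted p under 0.05 and a median of 0.26; limma-voom called 0 higher and 0 lower, and DESeq2 1 and 0. Interleukins and the TNF family gave a median of 0.35, and 0 of 18 passed, with 3 higher and 0 lower at an unadjusted p under 0.05; limma-voom called 0 higher and 0 lower, and DESeq2 1 and 0. Chemokines gave a median of 0.52, and 0 of 18 passed, with 1 higher and 1 lower at an unadjusted p under 0.05; limma-voom called 0 higher and 0 lower, and DESeq2 0 and 0. Without TAC replicate 2 more passed: 5 TGF-beta, 3 Wnt and Notch, 3 insulin-like growth factor, 2 integrin, 1 imprinted and 1 interleukin or TNF family gene were higher, and 1 chemokine was lower.

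The lists of protein quality control and stress are given beside the shares of all genes, of which 0.622% were higher and 0.47% lower past the test. At an unadjusted p under 0.05, 9.25% of all genes were higher and 8.12% lower. Of 21 antioxidant and metallothionein genes 1 rose, Mt2, which binds zinc and copper: it measured 8.74, 6.39 and 6.58 CPM in sham and 19.3, 14.2 and 13.5 CPM in TAC replicates 1, 2 and 3, with a log2 fold change of 1.11 ± 0.24 and an adjusted p of 0.0318. Of 19 annexins and cathepsins 1 rose, Anxa5, a membrane-binding annexin: it measured 122, 116 and 116 CPM in sham and 179, 146 and 191 CPM in TAC replicates 1, 2 and 3, with a log2 fold change of 0.55 ± 0.13 and an adjusted p of 0.0397. For heat shock proteins 0 of 19 passed, with 6 higher and 1 lower at an unadjusted p under 0.05 and a median of 0.13; limma-voom called 0 higher and 0 lower, and DESeq2 1 and 0; their summed level was 10276 to 10321 CPM in sham and 12107 to 12673 CPM in TAC. For the unfolded protein response 0 of 22 passed, with 0 higher and 1 lower at an unadjusted p under 0.05 and a median of 0.09; limma-voom called 0 higher and 0 lower, and DESeq2 0 and 0. For the integrated stress response 0 of 18 passed, with 6 higher and 0 lower at an unadjusted p under 0.05 and a median of 0.34; limma-voom called 0 higher and 0 lower, and DESeq2 0 and 0. For muscle ubiquitin ligases and autophagy 0 of 20 passed, with 2 higher and 0 lower at an unadjusted p under 0.05 and a median of -0.03; limma-voom called 0 higher and 0 lower, and DESeq2 0 and 0. Among splicing regulators of muscle 0 of 14 passed, with 0 higher and 4 lower at an unadjusted p under 0.05 and a median of -0.05; limma-voom called 0 higher and 0 lower, and DESeq2 0 and 1; Ptbp2 stood at -0.34 ± 0.09. Among circadian clock genes 0 of 18 passed, with 0 higher and 3 lower at an unadjusted p under 0.05 and a median of -0.10; limma-voom called 0 higher and 0 lower, and DESeq2 0 and 0; Hlf, a clock output factor, stood at -0.77 ± 0.25. Of the remaining cell types, 0 tested members of the epicardium (1 tested), adipocyte (1), Schwann (5), blood (5) and skeletal muscle (4) lists passed edgeR, DESeq2 or limma-voom, with 1 blood gene higher and 2 Schwann genes lower at an unadjusted p under 0.05. After leaving out TAC replicate 2, 5 annexins and cathepsins, 1 antioxidant gene and 1 heat shock gene were higher, and 1 antioxidant, 1 splicing and 1 clock gene were lower.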
